A study of Mytilus galloprovincialis with 12 samples.

Results

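The comparison described here asks what pre-exposure to chlorpyrifos (CHP) did to transcript levels in the digestive gland of mussels that were then injected with 17β-estradiol (E2). It was measured as the difference between the log2 ratios of the CHP/E2 arrays and those of the E2 arrays, for all clones of the chip. This took 8 of the 12 arrays of the series, 4 with CHP/E2 and 4 with E2, and the other 4, with CHP alone, entered the same fit and served for comparison. Each array was a dual color hybridization of 1 pool of 6 treated female Mytilus galloprovincialis, collected in October, against RNA of vehicle-treated animals. CHP/E2 animals were kept for 3 days in water with 4.5 mg/L CHP and then received 25 pmol E2 by injection into the posterior adductor muscle, whereas E2 animals received the same injection without CHP. The labels give CHP animals 4 days at the same concentration. The vehicle animals had 0.02% DMSO for 4 days and an injection of 50 µl artificial sea water with 0.05% ethanol after 3 days. All 3 treated groups had the same percentages of DMSO in the water and of ethanol in the injection. By the methods, CHP animals were injected as well, without E2. Mussels were farmed animals, most of them with immature or developing gonads, and glands were taken a day after injection.

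CHP is an organophosphate insecticide whose best known target is acetylcholinesterase, the enzyme that ends the signal of acetylcholine at synapses. E2 is the main estrogen of vertebrates, and in bivalves injected E2 is known to act on haemocytes and on the digestive gland. The digestive gland is the organ in which mussels digest food within lysosomes, store lipids and glycogen and metabolise foreign compounds. In a gland measured whole, fewer cells of a type and less RNA per cell cannot be told apart. The deposited files pair the clones of the chip with no gene names, and 0 clone IDs were found in the gene table used, so clones are described by ID and by their values. For the same reason the tissue could not be checked against its marker genes.

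The chip carried 1920 cDNA clones, each spotted in 2 places and coming from 20 plates, and 1816 clones with a value in the authors' table were tested. A log2 ratio of 0 means a level equal to vehicle, and a ratio of 1 means a level 2-fold that of vehicle. On the 8 arrays, the median over spots of signal divided by local background ranged from 1.62 to 3.29 in the treated channel and from 1.15 to 3.70 in the vehicle channel. Between 67.5% and 85.7% of clone spots exceeded the background by 2 of its SDs, and 0 spots were saturated. The vehicle RNA drops out of the difference only as far as it was the same on both sides. The names of the scans give vehicle pool numbers 1, 2 and 3 for replicates 1, 2 and 3 of both groups and none for replicate 4. They also give 1 treated pool number to E2 replicates 2 and 4 and 1 to CHP/E2 replicates 3 and 4, which the labels call separate replicates. P-values therefore measure the spread between these arrays, and the separate pools may be 3 and not 4 in each group. With arrays of 1 pool number averaged, 5 clones were called, 4 of them among the 6 described below, and clones with an unadjusted p under 0.05 numbered 96 in place of 161. Myt01-009F03, at 1.29, and Myt01-009C01, at 0.89, were then not called. Slides were shared as well: E2 replicates 1 and 2 lay on 1 slide and CHP/E2 replicates 1 and 2 on another. Replicate 3 of both groups lay on 1 slide, and replicate 4 of each group on separate slides. Outside replicate 3, slide and group cannot be told apart. The consensus correlation of arrays within slides was 0.363.

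Replicate 4 of each group was hybridized with the dyes exchanged, and its ratios were turned before averaging. Of the 8 arrays, 2 stood apart from their groups. CHP/E2 replicate 4 correlated over all clones at -0.30, -0.43 and -0.16 with CHP/E2 replicates 1, 2 and 3, which correlated at 0.51 to 0.67 among themselves. E2 replicate 1 correlated at 0.67, 0.63 and 0.49 with CHP/E2 replicates 1, 2 and 3, against 0.23, 0.07 and 0.10 with E2 replicates 2, 3 and 4. With the 40 clones of highest residual SD set aside, CHP/E2 replicate 4 correlated at 0.03, -0.06 and 0.13 with its group, and E2 replicate 1 still correlated at 0.55, 0.45 and 0.36 with CHP/E2 replicates 1, 2 and 3. Over all clones, CHP/E2 replicate 4 correlated at 0.46, -0.14, 0.72 and 0.62 with CHP replicates 1 to 4, of which replicate 3 alone has its dyes. CHP/E2 replicate 2 correlated at -0.33, 0.43 and -0.57 with CHP replicates 1, 2 and 4, which have its dyes. Why these arrays stood apart was not tested. The direction of the ratios was taken from the dyes in the labels, and the correlation with the deposited ratios was then at least 0.898 on each of the 8 arrays. Where leaving out both arrays that stood apart changed a call of a clone, the value without them is given with it. Both arrays were chosen after seeing the data. Leaving them out widens the gap wherever they lie nearest the other group, so such values only show dependence on these arrays.

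Few clones were called for CHP/E2 with respect to E2, and those called in the fit of all arrays were higher in CHP/E2. At B over 0, the threshold of the methods, 6 of 1816 clones were called, which is 0.33% of those tested, with 6 higher and 0 lower. Other settings also gave lower calls, with 14 higher and 7 lower under array weights, 20 and 8 with separate spots, 9 and 2 with scaling between arrays or with a dye term, and 5 and 2 with the deposited ratios. B is the log-odds that a clone differs. At a Benjamini-Hochberg adjusted p under 0.05 from the limma fit, 1 clone passed (0.0551%), and 161 clones (8.87%) had an unadjusted p under 0.05. Of the 161, 102 were higher (5.62%) and 59 lower (3.25%). The 4 values of a group lay clear of the 4 values of the other for 102 clones (5.62%), 63 with CHP/E2 higher (3.47%) and 39 with it lower (2.15%).

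**Figure D1:**
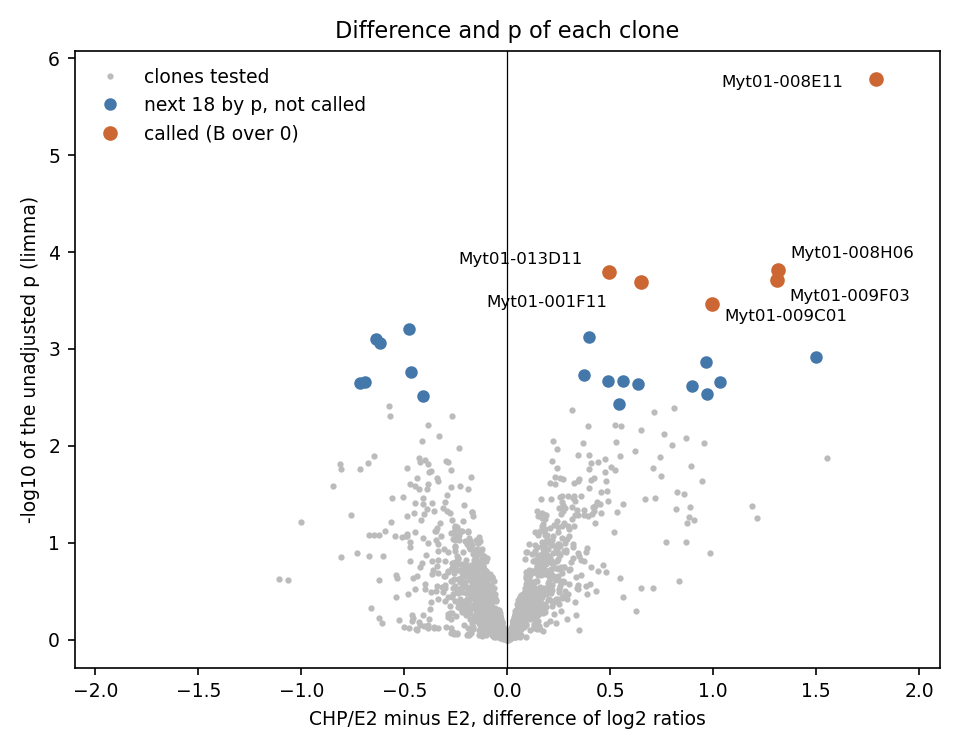
Each point is 1 of the 1816 clones, with the difference of mean log2 ratios, CHP/E2 minus E2, on the horizontal axis and -log10 of the unadjusted limma p on the vertical axis. The 6 called clones lie to the right of 0, Myt01-008E11 highest at a difference of 1.79, and the next 18 clones by p lie on both sides.

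The differences were small for most clones. Their median was -0.01, and the 5th and 95th percentiles were -0.38 and 0.38. The median SE of a difference was 0.13 and the median distance from a difference to either end of its 95% interval 0.29. For 1625 clones (89.5%) the interval lay within -1 and 1, that is, within a 2-fold change, and for 1291 clones (71.1%) it lay within -0.58 and 0.58, a 1.49-fold change. With this background correction, the data thus bound the size of the measured difference for most clones that were not called. The number with an interval within -1 and 1 was 1210 with plain background subtraction and 1701 without background correction. Signals near background therefore limit what the intervals say of dim clones. A difference over 1 in size was found for 11 clones, 8 higher and 3 lower, of which 3 were called. The interval of 1 clone, Myt01-008E11, lay wholly beyond 1.

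The 6 called clones fell into 3 forms by their levels with respect to vehicle. In Myt01-008E11, Myt01-013D11 and Myt01-001F11 the E2 arrays lay near vehicle and the CHP/E2 arrays above it. In Myt01-008H06 and Myt01-009F03 the E2 arrays lay below vehicle and the CHP/E2 arrays near it. In Myt01-009C01 the E2 arrays lay below vehicle and 3 of the 4 CHP/E2 arrays above it. The groups did not overlap in any of the 6, against no overlap in 5.62% of all clones. The 6 were chosen by this same difference, so this describes the choice.

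**Figure D2:**
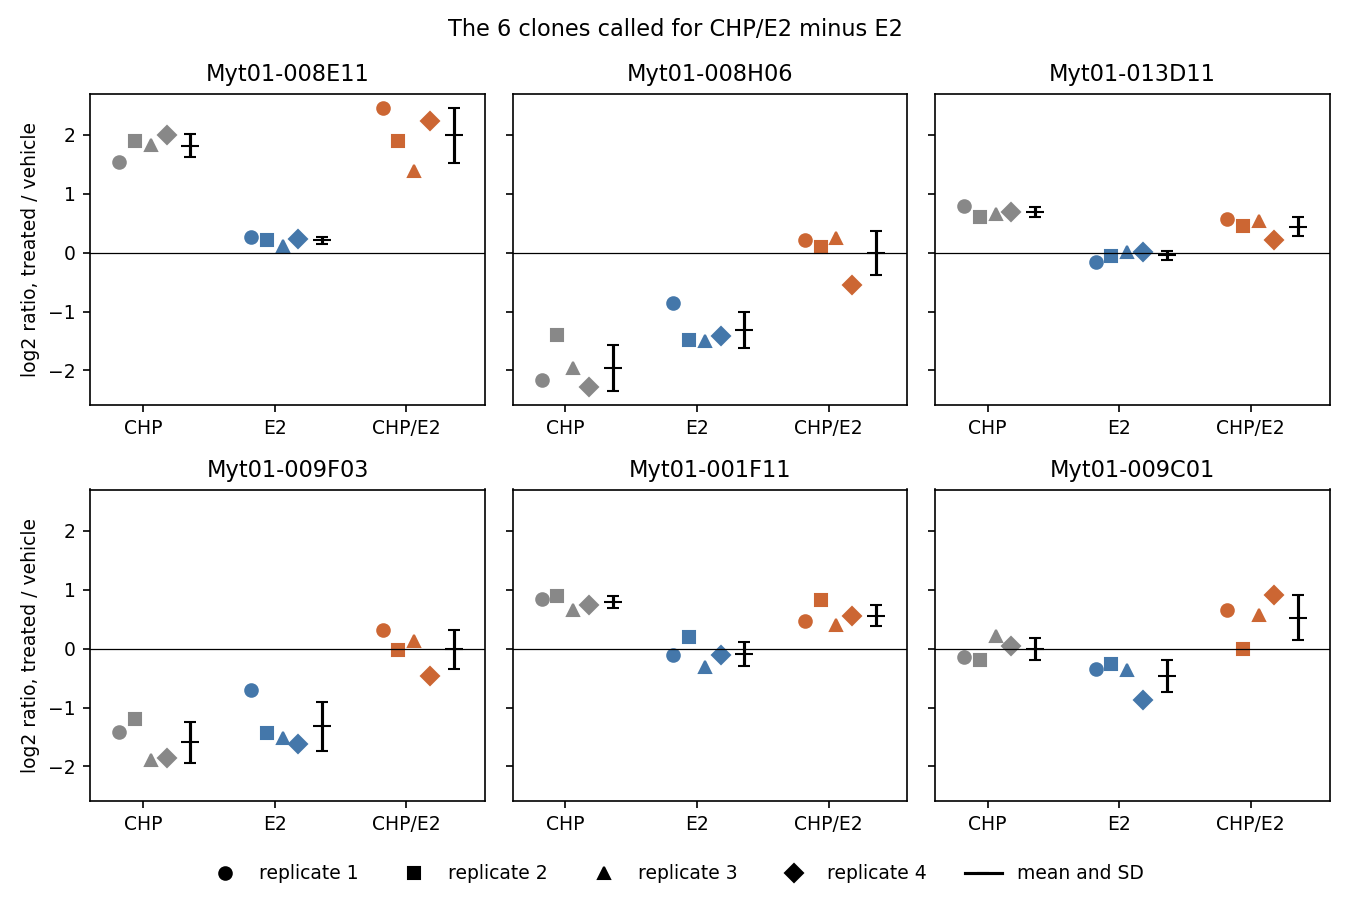
Each panel is 1 called clone, with the log2 ratio of treated to vehicle RNA on each of the 4 arrays of CHP (grey), E2 (blue) and CHP/E2 (orange), marker shape giving the replicate and bars the mean and SD. In Myt01-008E11 the CHP/E2 arrays lie between 1.39 and 2.46 and the E2 arrays between 0.12 and 0.26, and in Myt01-008H06 the E2 arrays lie between -1.49 and -0.86.

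Myt01-008E11 showed the largest difference of the clones tested. Its log2 ratios were 0.26, 0.22, 0.12 and 0.23 on E2 replicates 1 to 4 and 2.46, 1.90, 1.39 and 2.25 on CHP/E2 replicates 1 to 4. Every CHP/E2 array, the dye-exchanged one included, lay more than 1 above every E2 array. The means were 0.21 ± 0.06 and 2.00 ± 0.47 (SD, n = 4), a difference of 1.79 with an SE of 0.19 and a 95% interval of 1.36 to 2.22, or 3.46-fold (limma, adjusted p = 0.00296). The CHP arrays gave 1.55, 1.91, 1.83 and 2.00, a mean of 1.82, within the range of the CHP/E2 arrays. The effect of CHP with E2 departed from that without E2 by -0.03, which is not past the threshold (adjusted p = 0.965). The difference was 1.27 within the slide that carried replicate 3 of both groups, and 1.70 with slides as a random block (adjusted p = 0.00733). The clone was called under every alternative tried that gives a call, with an adjusted p of 0.101 at most. That highest value came with replicate numbers as blocks, which in replicates 1 to 3 share a vehicle pool number between the groups. Over the alternatives the difference ran from 1.18 to 2.35, beyond its interval at both ends. The vehicle RNA exceeded its background on 3 of the 4 arrays in each group, so the size of the ratio is less certain than its direction.

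Myt01-013D11 rose by a smaller amount. It had log2 ratios of -0.16, -0.06, 0.01 and 0.02 with E2 and of 0.57, 0.46, 0.54 and 0.21 with CHP/E2. The E2 arrays lay around vehicle, and the lowest CHP/E2 array, the dye-exchanged one, was still above all of them. The difference was 0.49 with an SE of 0.09 and an interval of 0.30 to 0.69, or 1.41-fold (limma, adjusted p = 0.0744). With CHP alone the ratios were 0.80, 0.61, 0.66 and 0.68, and the departure between both effects of CHP was -0.20 (adjusted p = 0.455).

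Myt01-001F11 behaved alike. Its log2 ratios were -0.11, 0.19, -0.30 and -0.11 with E2 and 0.47, 0.82, 0.40 and 0.56 with CHP/E2. The lowest CHP/E2 array, replicate 3, lay above the highest E2 array, replicate 2. The difference was 0.65 with an SE of 0.12 and an interval of 0.39 to 0.91, or 1.57-fold (limma, adjusted p = 0.0744). The ratios with CHP alone were 0.85, 0.89, 0.67 and 0.74, and the departure was -0.14 (adjusted p = 0.678). Without both arrays that stood apart, the difference of 0.64 was not called (adjusted p = 0.197). Over the 12 arrays the profile of Myt01-001F11 correlated at 0.859 with that of Myt01-013D11 and at 0.843 with that of Myt01-008E11, a description over arrays that share the vehicle RNA.

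Myt01-008H06 and Myt01-009F03 were low with E2 and not with CHP/E2. Myt01-008H06 had log2 ratios of -0.86, -1.49, -1.49 and -1.42 with E2 and of 0.21, 0.09, 0.25 and -0.55 with CHP/E2. Replicate 1 was the highest of the E2 arrays and replicate 4 the lowest of the CHP/E2 arrays, and these are the arrays that stood apart over all clones. The difference was 1.31 with an SE of 0.23 and an interval of 0.80 to 1.83, or 2.49-fold (limma, adjusted p = 0.0744). Without both of those arrays it was 1.65 (adjusted p = 0.00620).

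Myt01-009F03 gave nearly the same values. Its log2 ratios were -0.70, -1.44, -1.51 and -1.62 with E2 and 0.32, -0.03, 0.12 and -0.46 with CHP/E2, and again the highest E2 array was replicate 1 and the lowest CHP/E2 array replicate 4. The difference was 1.31 with an SE of 0.24 and an interval of 0.78 to 1.83 (limma, adjusted p = 0.0744). Without both arrays it was 1.66 (adjusted p = 0.00608). Within the shared slide the difference was 1.64, and that of Myt01-008H06 was 1.74.

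Both clones were low with CHP alone as well, so that CHP and E2 each lay below vehicle and CHP/E2 did not. The CHP ratios were -2.16, -1.41, -1.96 and -2.29 for Myt01-008H06 and -1.42, -1.19, -1.90 and -1.86 for Myt01-009F03. The difference between CHP/E2 and E2 thus had the opposite sign to the ratio of CHP to vehicle. By the labels CHP lasted 4 days in the CHP group and 3 days in the CHP/E2 group, whereas the methods give 1 exposure time for both. If the labels hold, each departure also compares exposure lengths, and these cannot be told apart. Vehicle RNA does not cancel in a departure either, since both the E2 and the CHP ratio are subtracted from the CHP/E2 ratio. Its part in the departures was not tested. The departure was 3.27 for Myt01-008H06 (adjusted p = 0.000350) and 2.90 for Myt01-009F03 (adjusted p = 0.000738). Of all clones tested, 10 were called for this departure (0.551%).

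Further clones had profiles close to this pair, not all of them with a large difference. Over the 12 arrays, Myt01-008H06 correlated at 0.963 with Myt01-009F03, at 0.963 with Myt01-004D03 and at 0.887 with Myt01-010F03. Myt01-004D03 had ratios of -0.42, -0.92, -0.95 and -1.15 with E2 and of 0.36, 0.45, 0.18 and -0.57 with CHP/E2. Myt01-010F03 had ratios of -0.40, -1.16, -0.98 and -1.63 with E2 and of 0.21, 0.21, 0.20 and -0.66 with CHP/E2. In both clones the groups overlapped through E2 replicate 1 and CHP/E2 replicate 4 alone. Their differences of 0.97 (adjusted p = 0.208) and 1.03 (adjusted p = 0.208) were not called in the fit of all arrays. Without both arrays they were called at 1.34 (adjusted p = 0.00608) and 1.46 (adjusted p = 0.00608). Leaving out the arrays that make the overlap widens the gap, so these calls are no separate support. In the fit of all arrays, the departures of Myt01-004D03 and Myt01-010F03 were 2.19 (adjusted p = 0.00472) and 2.13 (adjusted p = 0.0154).

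Myt01-009C01 had log2 ratios of -0.35, -0.27, -0.37 and -0.87 with E2 and of 0.65, -0.01, 0.56 and 0.91 with CHP/E2. E2 replicate 4 was the lowest value and CHP/E2 replicate 4 the highest, both on dye-exchanged arrays. The difference was 0.99 with an SE of 0.19 and an interval of 0.57 to 1.42 (limma, adjusted p = 0.104), and 0.73 without the dye-exchanged arrays, where it was not called. Without both arrays that stood apart it was 0.91 and not called either (adjusted p = 0.197). With CHP alone the ratios were near vehicle, at -0.14, -0.19, 0.22 and 0.05, and the departure of 1.01 was not past the threshold (adjusted p = 0.138). The treated RNA exceeded its background on 3 of the 4 E2 arrays. The profile closest to it over the 12 arrays was that of Myt01-017A11, at 0.926, whose difference was 0.71 (adjusted p = 0.292).

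Within the slide that carried replicate 3 of both groups, the differences were 0.52 for Myt01-013D11, 0.71 for Myt01-001F11 and 0.93 for Myt01-009C01. With slides as a random block, Myt01-008H06, Myt01-013D11, Myt01-009F03, Myt01-001F11 and Myt01-009C01 stayed called, each with an adjusted p of 0.0881. The number of calls rested on single arrays. The call of Myt01-008H06 and of Myt01-009F03 was lost without E2 replicate 2, 3 or 4 or CHP/E2 replicate 1, 2 or 3, with differences that stayed at 1.20 or more. Myt01-013D11 was lost without replicate 1 or 2 of E2 or replicate 1 or 3 of CHP/E2, and Myt01-001F11 without replicate 1, 3 or 4 of E2 or replicate 4 of CHP/E2. Myt01-009C01 was lost without any array but CHP/E2 replicate 2 and CHP replicates 2 and 3. The number of calls was 2 when E2 replicate 2, 3 or 4 or CHP/E2 replicate 3 was left out and 9 without CHP/E2 replicate 4. Without both arrays that stood apart, 12 clones were called, 9 higher and 3 lower, of which 4 were among the 6, and 8 had an adjusted p under 0.05. With arrays centred on their median in place of the loess fit, 1 clone was called.

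Just under the threshold lay 5 clones. They were Myt01-004G03 at a difference of -0.47, Myt01-005C09 at 0.40, Myt01-005E01 at -0.64, Myt01-014B05 at -0.62 and Myt01-008H08 at 1.50, with B between -0.04 and -0.63. The first 4 had an adjusted p of 0.157 and the last of 0.200. So 3 of the 5 clones nearest to a call were lower in CHP/E2, although 0 lower clones were called. Without both arrays that stood apart, Myt01-004G03 was called at -0.59 (adjusted p = 0.0454) and Myt01-005E01 at -0.78 (adjusted p = 0.0838).

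In the lower clones, CHP/E2 values lay closer to vehicle or on the other side of it. Myt01-005E01 had log2 ratios of 0.53, 0.59, 0.66 and 1.09 with E2 and of 0.11, -0.01, -0.11 and 0.33 with CHP/E2, so the groups did not overlap. Myt01-014B05 had 0.33, 0.39, 0.43 and 0.81 with E2 and -0.08, 0.08, -0.11 and -0.40 with CHP/E2. Both were above vehicle on the 4 E2 arrays. The intervals of their differences were -0.94 to -0.33 and -0.92 to -0.32. Myt01-004G03 had 0.11, 0.34, 0.18 and 0.40 with E2 and -0.30, -0.19, -0.37 and -0.01 with CHP/E2, and lay below vehicle on each CHP/E2 array. For Myt01-005E01 CHP alone gave a mean of 0.35 and a departure of -0.99 (adjusted p = 0.0431), and for Myt01-004G03 the mean was 0.18 and the departure -0.66 (adjusted p = 0.0610).

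Among the 24 clones of lowest p, 17 were higher in CHP/E2 and 7 lower. The groups lay clear of each other in 21 of them, and the 3 clones with overlap were Myt01-004D03, Myt01-010F03 and Myt01-006D10. The 7 lower clones all had E2 means above vehicle, from 0.10 to 0.72, and CHP/E2 means from -0.37 to 0.08. Their differences ran from -0.71 (Myt01-007F09) to -0.41 (Myt01-011A03), and Myt01-012C08, at -0.69, was called at -0.86 without both arrays that stood apart (adjusted p = 0.0663). These clones were chosen by p from this same difference, so their counts describe the choice. Among the 11 higher clones that were not called, Myt01-006D10 had ratios of 0.73, -0.02, 0.27 and 0.23 with E2 and of 1.40, 1.59, 1.13 and 0.68 with CHP/E2. Myt01-010E04 had 0.23, -0.41, -0.01 and -0.69 with E2 and 0.63, 0.57, 0.74 and 1.05 with CHP/E2. In Myt01-006D10 the groups overlapped only through E2 replicate 1 and CHP/E2 replicate 4, and without both it was called at 1.21 (adjusted p = 0.0454). In Myt01-010E04 the groups did not overlap. In Myt01-014B07 and Myt01-007B11 the treated RNA exceeded its background on 2 of the 4 E2 arrays only.

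**Figure D3:**
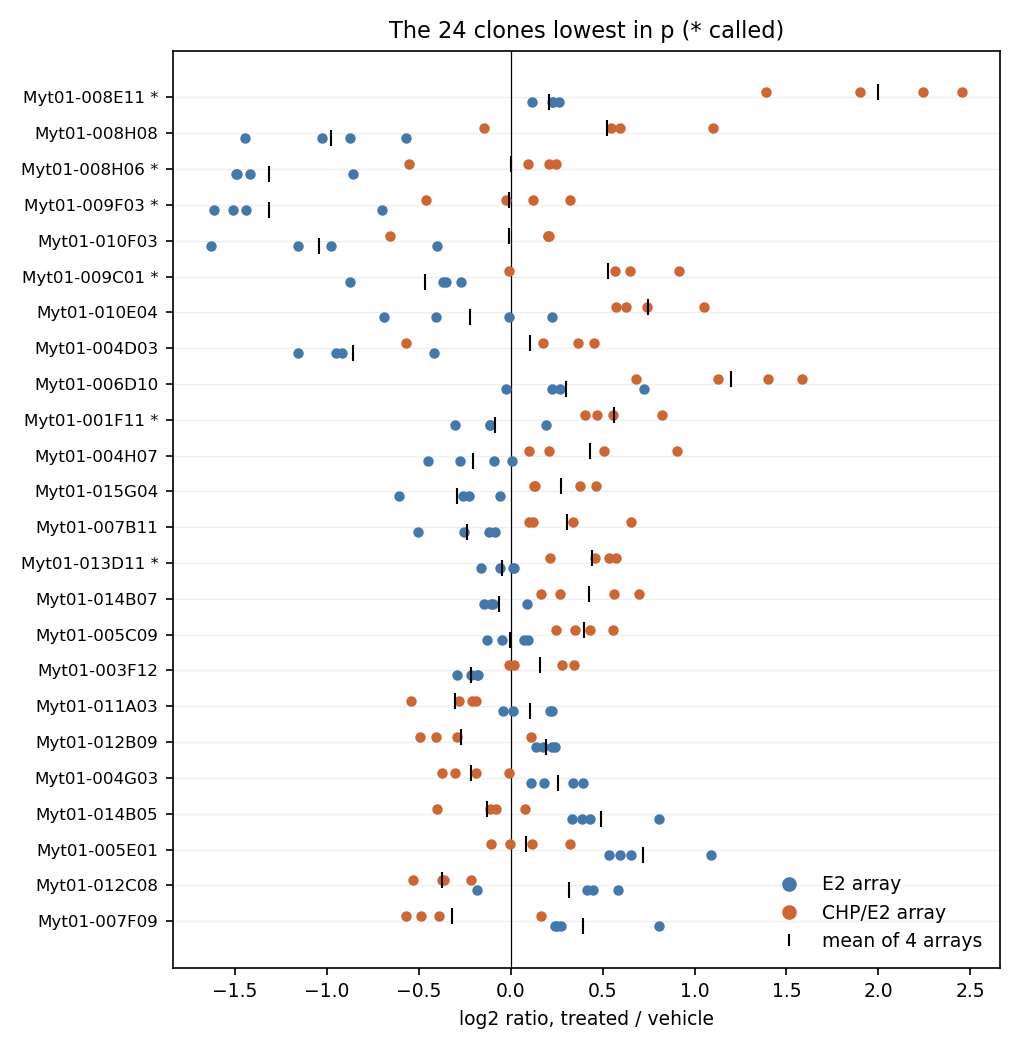
Each line is 1 of the 24 clones of lowest p, with the log2 ratio of treated to vehicle RNA on each E2 array (blue) and each CHP/E2 array (orange), the black ticks being the means of 4 arrays. The 7 clones at the bottom have E2 means between 0.10 and 0.72, and in 21 of the 24 clones the groups do not overlap.

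Large differences were not the same as called ones. Myt01-008H08 had log2 ratios of -0.57, -1.02, -1.44 and -0.87 with E2 and of 0.54, -0.15, 0.59 and 1.10 with CHP/E2. Myt01-005D06 had -0.63, -0.55, -2.20 and -2.04 with E2 and -0.39, 0.03, 0.28 and 0.87 with CHP/E2. The groups were apart in both, yet the difference of 1.55 in Myt01-005D06 had an interval of 0.39 to 2.71 (limma, adjusted p = 0.425). The largest falls were those of Myt01-004F11 at -1.11, Myt01-009A08 at -1.07 and Myt01-005D11, with adjusted p between 0.603 and 0.842. Myt01-009A08 stood at 0.23, 0.04 and 0.00306 on CHP/E2 replicates 1 to 3 and at -2.75 on replicate 4, and its interval was -2.97 to 0.83. Myt01-005D11 likewise had its lowest value, -2.30, on CHP/E2 replicate 4. The remaining large falls were -0.84 in Myt01-017B09 (adjusted p = 0.471) and -0.81 in Myt01-011E03 (adjusted p = 0.425), both with groups that did not overlap.

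The 40 clones of highest residual SD, from 1.19 to 2.52, were called in 0 cases, beside 0.33% over all clones. Their intervals reached 1.68 to 3.54 to either side. A high residual SD lowers B and widens the interval, so the lack of calls and the wide intervals follow from the choice. The 40 clones moved together from array to array. Their mean log2 ratio was -1.23, 0.06, 0.03 and 0.51 on E2 replicates 1 to 4 and -1.35, -1.72, -0.73 and 1.89 on CHP/E2 replicates 1 to 4. E2 replicate 1 was thus on the side of CHP/E2 replicates 1 to 3, and CHP/E2 replicate 4 on the other. On CHP replicates 1 to 4 the mean was 1.43, -0.65, 2.96 and 2.57. The median difference of the 40 clones was -0.35, with 35 lower and 5 higher, beside 47.3% higher over all clones. Each of their intervals included 0. Without these clones in the fit, 6 clones were called.

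Since each array carried treated and vehicle RNA, the difference could be followed in each. Over all clones, the difference between CHP/E2 and E2 arrays had an SD of 0.33 in the treated RNA and of 0.31 in the vehicle RNA, on the log2 scale of intensity after normalization between arrays. A single RNA includes the amount of DNA in the spot, which the ratio removes. In Myt01-008E11 the treated RNA was higher by 2.14 on the CHP/E2 arrays and the vehicle RNA by 0.35. Myt01-013D11 (0.70 and 0.21) and Myt01-001F11 (0.89 and 0.24) had both RNAs higher, the treated one more so. In these 3 clones the change of the treated RNA was larger than the difference of the ratios.

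In the other called clones the vehicle RNA was lower on the CHP/E2 arrays. The treated RNA of Myt01-008H06 was higher by 0.70 while its vehicle RNA was lower, at -0.62. The values were 0.89 and -0.42 for Myt01-009F03 and 0.76 and -0.24 for Myt01-009C01. In the treated RNA alone, Myt01-008E11 was the only one of the 6 called, and 2 clones were called in all. In Myt01-004G03 (-0.11 in the treated and 0.36 in the vehicle RNA) and Myt01-005E01 (-0.29 and 0.35) the vehicle RNA differed more than the treated RNA did. Over the 24 clones of lowest p, the treated RNA differed more than the vehicle RNA in 16, and both had opposite signs in 18. The difference of ratios is the treated value minus the vehicle value, so choosing clones by its p favours opposite signs. These counts describe the choice and were not set beside those over all clones. The part of the vehicle pools in these differences was not tested.

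**Figure D4:**
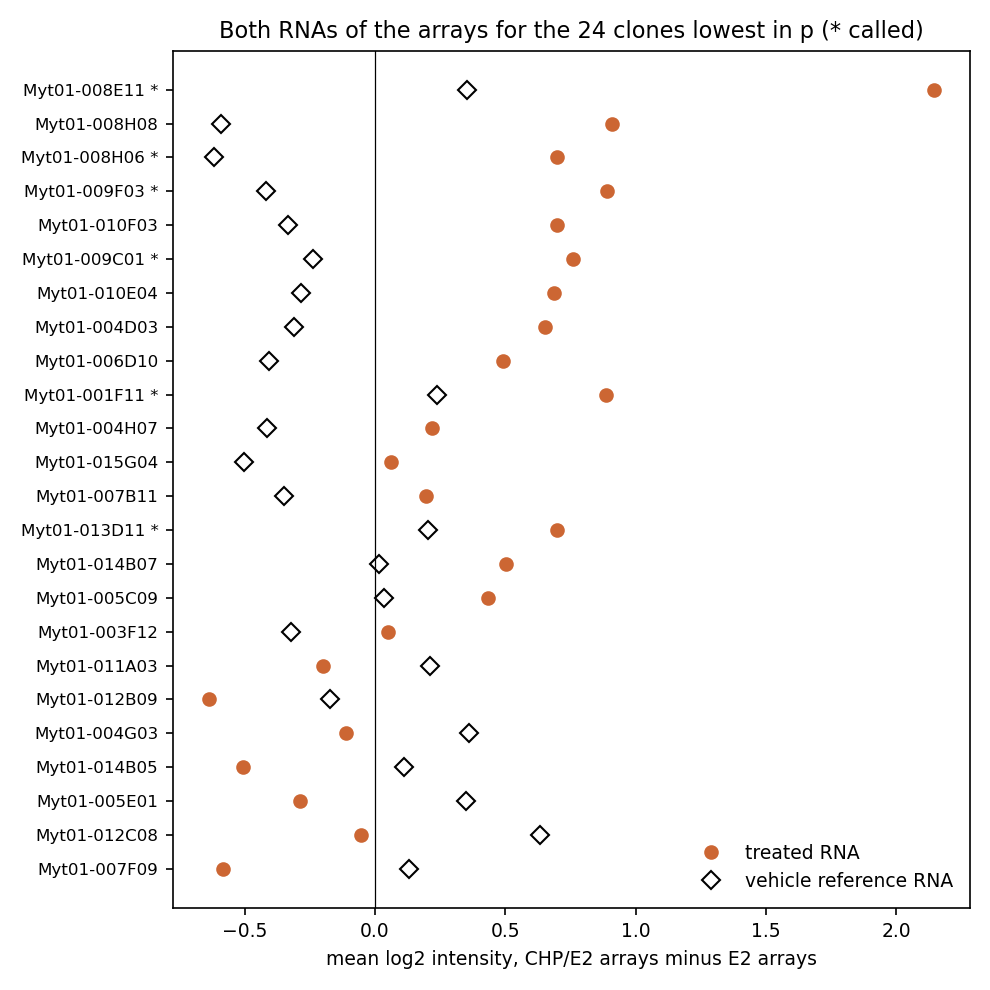
For each of the 24 clones of lowest p, the mean log2 intensity on CHP/E2 arrays minus that on E2 arrays is shown for the treated RNA (filled) and for the vehicle RNA (open diamonds). Myt01-008E11 stands at 2.14 in the treated and 0.35 in the vehicle RNA, whereas Myt01-008H06 stands at 0.70 and -0.62.

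The clones that CHP alone changed were followed in the E2-injected mussels. Against vehicle, 39 clones were called with CHP (2.15%), 25 higher and 14 lower. The CHP ratios are from arrays that are not part of the difference, although all ratios share vehicle RNA. Their calls, however, used the spread of each clone over all 12 arrays, as the tests of the difference did. Clones of small spread are favoured in both, so shares called or low in p are not independent of the choice. Of the 25 clones higher with CHP, 19 were higher and 6 lower in CHP/E2 than in E2, beside 47.3% higher over all clones. Their median difference was 0.30, beside -0.01 over all clones, and ran from 0.17, without the dye-exchanged arrays, to 0.37 over the alternatives. Of the 25, 3 were called (12%), namely Myt01-008E11, Myt01-013D11 and Myt01-001F11, beside 0.33% over all clones, and 10 had an unadjusted p under 0.05 (40%), 9 of them higher, beside 8.87% over all clones. In the CHP group the median log2 ratio of the 25 was 0.82, beside 0.26 on E2 arrays and 0.49 on CHP/E2 arrays. Most of these clones thus lay above vehicle with E2 alone too, and for each of the 25, which had been chosen for a high ratio with CHP, the difference was smaller than that ratio. Among the members, Myt01-006D10 differed by 0.90 and Myt01-001E05 by 0.56, with CHP means of 1.11 and 1.24. Others did not follow: Myt01-007E04 differed by -0.42 with an interval of -0.70 to -0.13 and Myt01-001E12 by -0.51 with an interval of -1.11 to 0.09, with CHP means of 0.45 and 1.05. With the treated RNA alone, 15 of the 25 were higher.

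The 14 clones lower with CHP did not fall with CHP in E2-injected mussels. All 14 had a positive difference between CHP/E2 and E2, with a median of 0.12, from 0.02 to 1.31. Their median log2 ratio was -0.40 in the CHP group, -0.16 on E2 arrays and -0.01 on CHP/E2 arrays. Of the 14, 2 were called (14.3%), Myt01-008H06 and Myt01-009F03, and 4 had an unadjusted p under 0.05 (28.6%), the other two being Myt01-004D03 and Myt01-010F03. The shares over all clones were 0.33% and 8.87%, and the spread shared by both tests limits this comparison as well. The rest of the list differed little, and the largest of the rest was 0.17 in Myt01-014G02, with an interval of -0.04 to 0.38. Myt01-016D05, with a CHP mean of -1.04, differed by 0.03 with an interval of -0.63 to 0.68. With the treated RNA alone the direction turned, with 6 of the 14 higher and a median of -0.01, and with the deposited ratios 10 of 14 were higher.

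**Figure D5:**
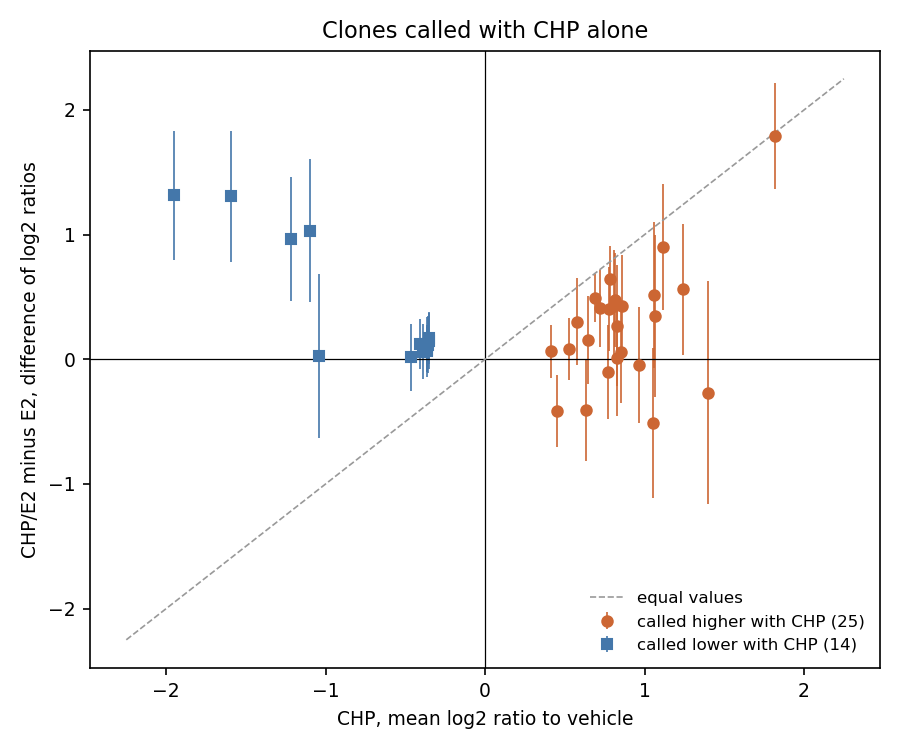
Each point is 1 of the 39 clones called with CHP alone, with its mean log2 ratio with CHP on the horizontal axis and its difference between CHP/E2 and E2, with the 95% interval, on the vertical axis, and the dashed line marks equal values. The 14 clones lower with CHP (squares) lie above 0, from 0.02 to 1.31, and of the 25 higher ones (circles) 19 lie above 0.

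Calls against vehicle for E2 (8 clones, 0.441%) and for CHP/E2 rested on the arrays of the difference itself, so their values only describe it. The 4 clones lower with E2 (Myt01-008H06, Myt01-009F03, Myt01-010F03 and Myt01-004D03) had a median of -1.18 with E2 and of -0.01 with CHP/E2. The 4 clones higher with E2 (Myt01-005E01, Myt01-010D08, Myt01-014B04 and Myt01-014B05) had medians of 0.56 and 0.12. In CHP/E2 the means of these 8 clones lay between -0.13 and 0.53, and Myt01-010D08 stood at 0.63 with E2, 0.53 with CHP/E2 and 0.77 with CHP. Of the 14 clones called with CHP/E2 (0.771%), all had a positive difference, with a median of 0.48. In this list Myt01-005C09 had ratios of 0.56, 0.24, 0.35 and 0.43 with CHP/E2 and a CHP mean of 0.14, and Myt01-010G04 had means of 0.27 with CHP/E2 and -0.07 with CHP. Myt01-014H10 was the largest of the members not called for the difference beside Myt01-006D10, at 1.13 with CHP/E2 and 0.30 with E2, and the interval of its difference was 0.10 to 1.55.

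The 2 spots of each clone gave similar differences. Over clones, the differences of the first and second spots correlated at 0.884, with a median gap of 0.06. For Myt01-008E11 the spots gave 1.81 and 1.77, and for Myt01-008H06 1.33 and 1.30. The spots share an RNA and a slide, so this shows the precision of the spots only. The called clones came from plate 1 (1 clone), plate 8 (2), plate 9 (2) and plate 13 (1) of the clone collection. The share of clones with an unadjusted p under 0.05 ran from 0% on plate 20, of 95 clones, to 16.0% on plate 15, of 94 clones, beside 8.87% over all plates.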

How the data were processed

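The authors deposited scanner intensities, mean brightness and median local background of each spot in the Cy5 and Cy3 channels, neither background-corrected nor normalized. They also deposited log2 ratios of treated to vehicle RNA, made with limma (version not given in the sources used here). Scale and dye direction of these were checked against the scanner values. Their centring was close to 0, with array medians between -0.02 and 0.0225.

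Results were computed from the intensities: limma's normexp at an offset of 50, loess within arrays with 720 non-clone spots at weight 0, dye-exchanged arrays turned, 2 spots averaged. The 104 clones without a deposited value were left out. lmFit and eBayes fitted 12 arrays with 3 coefficients (R 4.3.3, limma 3.58.1, statmod 1.5.0, prior proportion 0.01), and tests are two-sided. Single RNAs were split after Aquantile normalization. The fit was tested on simulated data. Array number limits the precision. Named were each called clone, the next by p up to 24, the 5 largest differences in each direction and the 5 just under B of 0. Members and lists were chosen with earlier results of these data known. The alternatives were background, normalization, dye term, array weights, separate spots, blocks, filters, deposited ratios, the treated RNA alone and leaving out arrays.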

Additional observations from a re-analysis of the deposited data

Results flagged for a closer look

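In 6 of the 60 groups of 4 arrays examined for the named clones, 1 array lay far from the other 3 (Dixon's test at the 95% level). The clones were chosen on these same arrays, so the 1 in 20 groups that chance gives does not apply to them. Myt01-008H06 had -0.86 on E2 replicate 1, with the others between -1.49 and -1.42. Myt01-009C01 had -0.87 on E2 replicate 4, with the others between -0.37 and -0.27, and Myt01-007F09 had 0.80 on E2 replicate 4, with the others between 0.24 and 0.28. On CHP/E2 replicate 4, Myt01-010F03 had -0.66 (others between 0.20 and 0.21), Myt01-009A08 had -2.75 (others between 0.0031 and 0.23) and Myt01-017B09 had -1.58 (others between -0.50 and -0.29). So 3 of the 6 values came from CHP/E2 replicate 4. Of these, Myt01-009A08 and Myt01-017B09 had been named for the size of a difference that includes the far value.

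The effect of CHP differed with and without E2, by a contrast of the limma fit called at B over 0, in 6 of the 30 named clones. Over all 1816 clones tested, 10 were called for it (0.551%). The named clones were chosen by the difference that enters this contrast, so their count describes the choice. It was higher with E2 in Myt01-008H06, by 3.27 on the log2 scale (adjusted p = 0.000350), in Myt01-009F03, by 2.90 (adjusted p = 0.000738), in Myt01-004D03, by 2.19 (adjusted p = 0.00472), and in Myt01-010F03, by 2.13 (adjusted p = 0.0154). It was lower with E2 in Myt01-005E01, at -0.99 (adjusted p = 0.0431), and in Myt01-004G03, at -0.66 (adjusted p = 0.0610).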

How the results depend on the processing

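The number of clones called, 6 in the fit of all arrays, was 1 with median centring, 11 with scaling between arrays, 3 with the 8 arrays alone, 11 with a dye term, 21 with array weights, 28 with separate spots, 1 at adjusted p and 2 with the treated RNA alone. It ran from 2 to 9 when single arrays were left out. The number at adjusted p, 1 in that fit, was 0 without background correction, 6 with scaling, 8 with a dye term, 21 with array weights, 45 with separate spots, 2 with the treated RNA alone, 2 without the dye-exchanged arrays and 1 to 5 when single arrays were left out, the highest being 5 with CHP/E2 replicate 4 left out, then 3 (CHP/E2 replicate 2) and 2 (E2 replicate 1). Without E2 replicate 1 and CHP/E2 replicate 4, chosen after seeing the data, the numbers were 12 and 8. With the 40 most variable clones left out, likewise chosen after seeing the data, 6 were called. Clones with an interval within -1 and 1 numbered from 1210 to 1711, the fewest with plain background subtraction. The direction of the 6 called clones never turned. The departure of Myt01-008E11, -0.03, turned to 0.11 with print-tip loess, 0.17 with median centring, 0.0355 with pools of 1 number averaged, 0.0275 with the deposited ratios, and ran from -0.18 to 0.17 over single arrays left out. That of Myt01-013D11 turned to 0.0544 with median centring, and the difference of Myt01-004F11 to 0.37 in the treated RNA alone. The cause was not tested.

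Replicate numbers were not taken as pairs in the main fit. Same-numbered arrays nevertheless share a vehicle pool number in replicates 1 to 3 and the exchanged dyes in replicate 4. Deviations of same-numbered arrays correlated at 0.429, -0.220, 0.133 and 0.545, and E2 replicates 1, 2 and 3 each deviated most like CHP/E2 replicate 1. With the replicate block, 9 clones were called, 7 higher and 2 lower, with Myt01-013D11 and Myt01-009C01 no longer among them, and 0 passed the adjusted p, with 193 at an unadjusted p under 0.05. Of the 104 clones without a deposited value, 0 were called by limma and 13 had an unadjusted p under 0.05. Signal near background limits the dimmest clones: 1509 clones passed a filter on dim clones, with 6 called.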
